A study of Mus musculus with 12 samples.

Results

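Glycine acts as an inhibitory transmitter through receptors that are chloride channels, and the mouse pineal gland was examined for the transcripts of 4 genes of that system: the receptor subunits Glra1, Glra3 and Glrb and the glycine transporter Slc6a5. Every probe set annotated to these symbols was taken, which gave 8 of the 45037 probe sets on the array. A filter on dim signals kept a probe set with at least 3 arrays at or above the median of their array, and it kept 5 of the 8. All 4 genes were among the 12379 genes tested. The genes were selected on their measured signals over the 4 groups of these arrays, so their values are given as a description and carry no test.

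The tissue was whole pineal gland from mice of both genders older than 2 months, kept in 12 h of light and 12 h of dark and killed with CO2, under dim red light for the night groups. The groups were Crx-/- at Zeitgeber time 20 (ZT20, night), control at ZT20, Crx-/- at ZT6 (day) and control at ZT6, with 3 biological replicates and 3 arrays each. Both genotypes are labelled as strain 129sv. Crx is a homeobox transcription factor of photoreceptors and pinealocytes, and the Crx-/- label carries no further allele. With 1 day time and 1 night time, a difference between them says nothing of the phase or shape of a daily rhythm.

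A glycine receptor is a pentamer of the Cys-loop family. Its alpha subunits, among them Glra1 and Glra3, bind glycine, and the beta subunit Glrb ties the receptor to the scaffold protein gephyrin under the synapse. Slc6a5, also called GlyT2, takes glycine back into the nerve endings that release it, while Slc6a9 (GlyT1) clears it mainly into glia. Pinealocytes are neuroendocrine cells related to photoreceptors that make melatonin at night, and inhibitory transmitters are known to act on them beside the noradrenergic input.

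Of the 12 arrays 1 stood apart from its group. The trimmed mean of the deposited signals ranged from 381 to 697. The array labelled control ZT20 replicate 3 correlated across genes at 0.915 and 0.925 with the others of its group and at 0.970, 0.981 and 0.989 with the Crx-/- ZT20 arrays. Without it, pairs within a group lay between 0.979 and 0.992 and pairs across genotypes between 0.893 and 0.926, so its label may be wrong, and what the control ZT20 values mean depends on it. The label was kept, and results are given with and without this array. All 9 pinealocyte markers, Crx among them, were above background in every group. The Crx probe set gave 6262 to 8876 on the Crx-/- arrays and 6529 to 10048 on the control arrays, and its position against the deletion is not given in the sources used here, so it checks no label. The 5' to 3' ratio of actin was 0.169 to 0.219 in Crx-/- ZT6, against 0.248 to 0.283 in control ZT6, and was highest, at 0.337, on control ZT20 replicate 3. The part of this difference in the genotype comparisons was not tested.

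**Figure D1:**
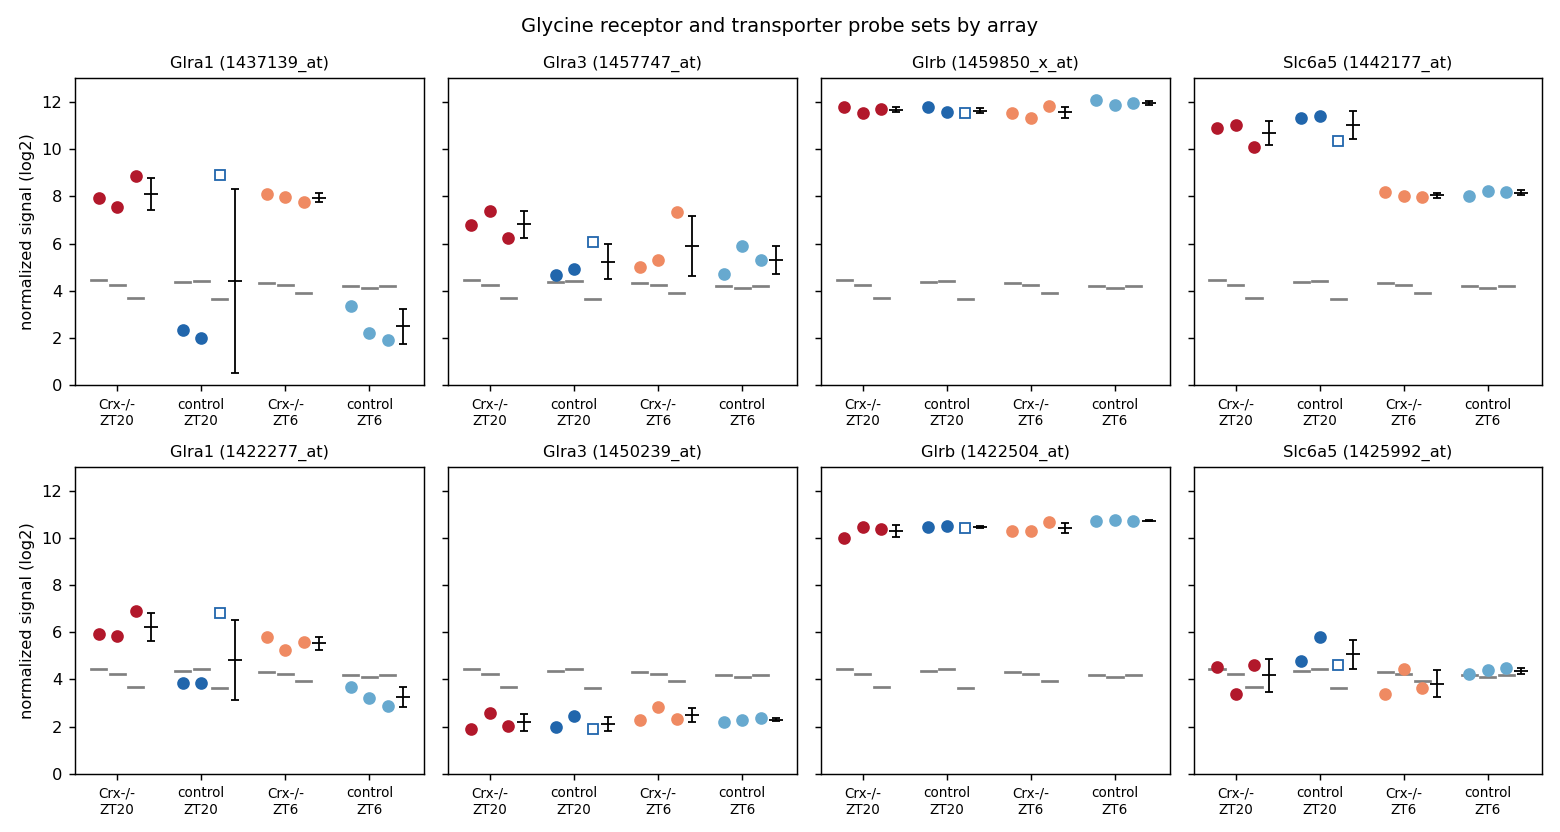
Normalized signal (log2) of the 8 probe sets on the 12 arrays, with 1 point per array, the open square marking control ZT20 replicate 3, black bars the group mean ± SD (n = 3) and grey bars each array's background (its highest Bacillus control probe set). Slc6a5 (1442177_at) is high in both ZT20 groups, and Glra1 is high on the Crx-/- arrays and on control ZT20 replicate 3.

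The transporter Slc6a5 was higher at night in both genotypes on its brighter probe set. This probe set, 1442177_at, had deposited signals of 1587, 2032 and 1330 in Crx-/- ZT20, against 249.5, 298.2 and 298.2 in Crx-/- ZT6. In control glands the same probe set read 1683, 2660 and 1410 at ZT20, against 245.2, 299.7 and 323.7 at ZT6. Every ZT20 array was above every ZT6 array. The difference between night and day on the normalized log2 scale was 2.63 ± 0.28 (SE, n = 3 each) in Crx-/- glands, a 6.18-fold difference. In control glands it was 2.87 ± 0.28, or 7.33-fold, and without control ZT20 replicate 3 it was 3.24 ± 0.21, or 9.46-fold (n = 2 at ZT20). In the whole table, limma (Benjamini-Hochberg adjusted p under 0.05) called 1.57% of the genes tested between night and day in Crx-/- glands and 16.2% in control glands, from which nothing is read about Slc6a5 because its signals over all 4 groups were known when it was chosen.

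By genotype, Slc6a5 differed by less than the spread between arrays with all 12 arrays. The group means on the normalized log2 scale were 10.67 ± 0.50 (SD) in Crx-/- ZT20, 11.03 ± 0.61 in control ZT20, 8.05 ± 0.11 in Crx-/- ZT6 and 8.15 ± 0.11 in control ZT6 (n = 3 each). Crx-/- minus control was -0.35 ± 0.28 (SE) at ZT20, with arrays that overlapped, and -0.11 ± 0.28 at ZT6, with arrays that also overlapped. Averaged over both times it was -0.23 ± 0.20. With the replicate number as a block at ZT20 the ZT20 value was -0.35 ± 0.11. The labels state no such pairing, so that smaller SE depends on an assumption. The ZT20 value rested on single arrays. With control ZT20 replicate 3 left out it was -0.71 ± 0.21 and the groups no longer overlapped, and without Crx-/- ZT20 replicate 3, the array with the lowest Slc6a5 signal of its group, it was -0.07. The night-minus-day difference in Crx-/- less that in control glands was -0.25 ± 0.40 with all arrays and -0.60 ± 0.29 without control ZT20 replicate 3.

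The other Slc6a5 probe set, 1425992_at, was dim and did not show the same pattern. It read 17.1, 6.7 and 30.2 in Crx-/- ZT20, against 12.5, 40.7 and 27.3 in control ZT20. At ZT6 the signals were 5.4, 19.8 and 11.9 in Crx-/- glands, against 15.9, 15.8 and 19.8 in control glands. On 3 of the 12 arrays, all of them Crx-/-, it was at or below background, which is the highest signal among 27 control probe sets for Bacillus genes on the same array. Its night-minus-day difference was 0.36 ± 0.43 in Crx-/- glands, where the arrays overlapped, and 0.70 ± 0.43 in control glands, where they did not. The night level of Slc6a5 described here therefore comes from 1 probe set. Which of the probe sets reads the Slc6a5 transcript is not settled here.

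The 250 bases upstream of the 2 start sites that RefSeq gives for Slc6a5 (build GRCm38.p6, plus strand) are shown because this was the gene with the largest difference between night and day among the 4. They were searched on both strands for TAATCC, the core of Crx and Otx sites, for the cAMP response element TGACGTCA and its part TGACG, and for CACGTG, the E-box of the clock factors. Capitals mark the matches.
Slc6a5 upstream window 1, chr7:49910049-49910298: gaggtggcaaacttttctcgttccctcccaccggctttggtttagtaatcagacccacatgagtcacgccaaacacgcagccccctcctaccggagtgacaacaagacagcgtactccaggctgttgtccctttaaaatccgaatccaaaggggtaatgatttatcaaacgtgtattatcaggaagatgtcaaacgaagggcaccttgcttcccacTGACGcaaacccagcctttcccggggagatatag
Slc6a5 upstream window 2, chr7:49911450-49911699: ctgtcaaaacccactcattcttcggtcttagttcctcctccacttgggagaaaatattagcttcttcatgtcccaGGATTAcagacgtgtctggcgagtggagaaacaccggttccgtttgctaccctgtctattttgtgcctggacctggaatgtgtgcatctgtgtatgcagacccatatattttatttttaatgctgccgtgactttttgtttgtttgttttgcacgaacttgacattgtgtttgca
Window 1 held TGACG at 34 to 30 bases before the start, and window 2 held TAATCC on the other strand (printed as GGATTA) at 175 to 170 bases before the start. TGACG was present in 17.8% of 32851 upstream windows of this length and TAATCC in 6.25%, while TGACGTCA was present in 1.55% and CACGTG in 6.02%. TGACGTCA contains TGACG, so these matches are not independent. Of the 4 genes 3 had an entry, and the windows of Glra3 and Glrb held none of the 4 motifs. A match is a description of the letters and not a site.

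Glra1, the alpha subunit of the adult spinal glycine receptor, separated the genotypes at both times apart from 1 array. Its brighter probe set, 1437139_at, had deposited signals of 204.1, 173.5 and 572.8 in Crx-/- ZT20, against 0.8, 0.5 and 556.7 in control ZT20. At ZT6 it read 239.6, 289.3 and 257.6 in Crx-/- glands, against 7.3, 1.1 and 0.4 in control glands. All 6 Crx-/- arrays were above background, 5 of the 6 control arrays were at or below it, and the exception at 556.7 was control ZT20 replicate 3. In a whole gland, more cells of a type that carries a transcript and more RNA per cell cannot be told apart.

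On the normalized log2 scale Glra1 averaged 8.11 ± 0.67 (SD) in Crx-/- ZT20, 4.41 ± 3.90 in control ZT20, 7.94 ± 0.19 in Crx-/- ZT6 and 2.49 ± 0.75 in control ZT6 (n = 3 each). At ZT6, where the control group was wholly at background, Glra1 was at least 13.7-fold higher in Crx-/- glands. This bound sets the Crx-/- mean against the control arrays raised to their own background. At ZT20 the fitted difference was 3.69 ± 1.35 (SE) with all arrays, and the groups overlapped. When control ZT20 replicate 3 was left out the groups did not overlap, and Glra1 was at least 13.2-fold higher in Crx-/- glands. Averaged over both times, Glra1 was at least 7.96-fold higher in Crx-/- glands with 12 arrays and at least 13.4-fold with 11. The fitted log2 differences, 4.57 ± 0.96 and 5.68 ± 0.32, depend on the offset added before the log, because most control arrays were at background. In this contrast limma called 43.4% of all genes tested with 12 arrays and 55.9% with 11. Glra1 passed the filter through the Crx-/- arrays and control ZT20 replicate 3, so these shares are not used as support. The authors' deposited table lists Glra1 among the genes higher in Crx-/- glands, with a log2 fold change of 3.17 and a linear fold change of 9 for both times together.

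Time of day moved Glra1 less than the spread between arrays. Night minus day was 0.17 ± 1.35 in Crx-/- glands, with overlapping arrays. In control glands it was 1.92 ± 1.35 with all arrays and -0.33 ± 0.47 without control ZT20 replicate 3, and as the other control arrays were at background it describes no level there. The Crx-/- ZT20 and Crx-/- ZT6 groups were thus highest and overlapped, and neither control group had a level of its own apart from replicate 3 at ZT20.

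The second Glra1 probe set, 1422277_at, was dimmer, did not pass the filter and ran the same way. It read 50, 51.3 and 158.1 in Crx-/- ZT20, against 6, 8.8 and 138.1 in control ZT20. At ZT6 it read 41.1, 37.7 and 56.6 in Crx-/- glands, against 10.1, 5.3 and 3.7 in control glands. Control ZT20 replicate 3 was again the only control array above background. Over both times it was at least 2.29-fold higher in Crx-/- glands with 12 arrays and at least 3.01-fold with 11. At ZT6, with all control arrays at background, the signal was at least 2.58-fold higher in Crx-/- glands. Night minus day in Crx-/- glands was 0.70 ± 0.64 on this probe set, with no overlap on the normalized scale, unlike the brighter one.

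Glra3, an alpha subunit known from superficial dorsal horn and retina, was low and varied between arrays of a group. Its brighter probe set, 1457747_at, had deposited signals of 93.1, 154.1 and 100.5 in Crx-/- ZT20, against 11.6, 21.2 and 83.4 in control ZT20. At ZT6 it read 22.1, 39.6 and 195.3 in Crx-/- glands, against 23.9, 52.7 and 38.2 in control glands. All 12 arrays were above background. The genotypes did not overlap at ZT20 and overlapped at ZT6, where 195.3 on Crx-/- ZT6 replicate 3 was the highest deposited signal. After normalization Crx-/- ZT20 replicate 2 was higher, at 7.38 against 7.35 on the log2 scale.

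Crx-/- minus control for Glra3 was 1.59 ± 0.61 (SE) at ZT20, with means of 6.81 ± 0.56 in Crx-/- and 5.22 ± 0.74 in control glands (SD, n = 3 each) on the normalized log2 scale, and 2.01 ± 0.60 without control ZT20 replicate 3. In this contrast limma called 11.7% of all genes with 12 arrays and 43.7% with 11. At ZT6 the difference was 0.57 ± 0.61, with means of 5.88 ± 1.27 in Crx-/- and 5.31 ± 0.60 in control glands, beside 32% of all genes called. It turned to -0.16 ± 0.48 without Crx-/- ZT6 replicate 3. Over both times it was 1.08 ± 0.43 with all arrays, 1.29 ± 0.40 without control ZT20 replicate 3 and 0.72 ± 0.32 without Crx-/- ZT6 replicate 3. Night minus day was 0.93 ± 0.61 in Crx-/- glands and -0.09 ± 0.61 in control glands, with arrays that overlapped in both, and in Crx-/- glands it was 1.66 ± 0.48 without Crx-/- ZT6 replicate 3. Exactly 3 arrays carried Glra3 past the filter, 2 of them from Crx-/- ZT20 and the other Crx-/- ZT6 replicate 3. All are of the genotype where Glra3 was higher. Its place among the tested genes, and the shares of all genes called, are therefore not used as support. The values without Crx-/- ZT6 replicate 3 come from a fit with no filter, chosen after seeing the data.

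The other Glra3 probe set, 1450239_at, gave 0.3 to 3.8 and was at or below background on all 12 arrays, so it gives no fold and no direction. The Glra3 levels described here therefore come from the brighter probe set alone. Which probe set reads the Glra3 transcript is not settled here. Over the 8 probe sets and 4 groups, 6 of 32 pairs of a probe set and a group were at background on every array. These were 1450239_at in all 4 groups and both Glra1 probe sets in control ZT6.

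**Figure D2:**
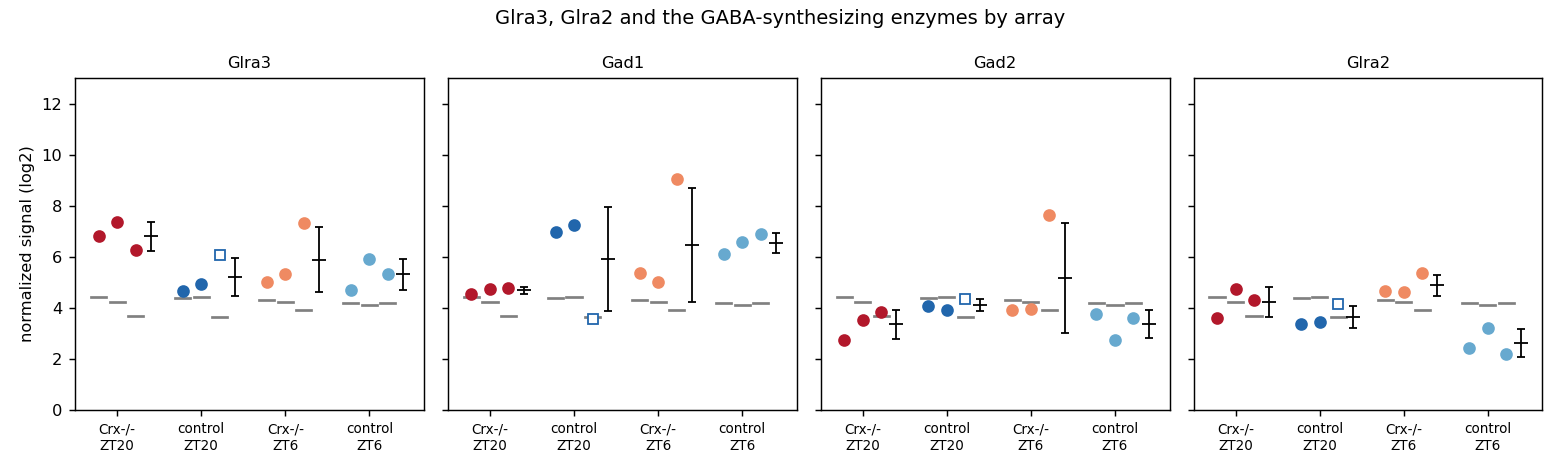
Normalized signal (log2) of Glra3, of the GABA-synthesizing enzymes Gad1 and Gad2 and of the receptor subunit Glra2 on the 12 arrays, with points, the open square, black bars (mean ± SD, n = 3) and grey background bars as in the plot of the 8 probe sets. Crx-/- ZT6 replicate 3 has the highest Glra3, Gad1, Gad2 and Glra2 point of its group.

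The GABA-synthesizing enzymes Gad1 and Gad2 were high on that same Crx-/- ZT6 array. The sum of the other inhibitory neuron markers lay within the range of its group. Gad1, which makes GABA, read 17.1, 22.5 and 34.4 in Crx-/- ZT20, against 63.3, 121.4 and 10.8 in control ZT20. At ZT6 Gad1 read 29.5, 30.9 and 610.2 in Crx-/- glands, against 66, 87.3 and 124.9 in control glands. Gad2 read 241.3 on Crx-/- ZT6 replicate 3, against 2.6 to 15.3 on the other Crx-/- arrays and 2.9 to 21.8 on the control arrays. Apart from replicate 3 at ZT6, the Crx-/- arrays had less Gad1 than the control arrays other than control ZT20 replicate 3. Without Gad1 and Gad2, a sum chosen after seeing the data, the other 6 markers summed to 1942 on Crx-/- ZT6 replicate 3, against 2217 and 1927 on the other arrays of its group. The vesicular transporter Slc32a1 read 43.5 there, against 38.9 and 35.6. The sum is of linear signals, so a rise in a gene as dim as Slc32a1 would hardly show in it. The part of inhibitory neurons in the Glra3 signal of this array was not tested.

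Over the 8 listed inhibitory neuron markers on the array, the summed normalized signal was 2451 to 2675 in Crx-/- ZT20, 1451 to 2530 in control ZT20, 1967 to 2663 in Crx-/- ZT6 and 1125 to 1397 in control ZT6. At background on every array were Ptf1a among the Crx-/- ZT20 glands, Lhx5 among the control ZT20 glands, both genes for Crx-/- ZT6, and both plus Gad2 for control ZT6. Only 3 of the list were tested, and limma called Lhx1 (0.88 ± 0.22, adjusted p = 0.00643) and Tfap2a (0.61 ± 0.13, adjusted p = 0.00327) higher in Crx-/- glands over both times, while Gad1 (-0.65 ± 0.73, adjusted p = 0.488) was not called. These 3 genes were named after their values were seen, and 25.3% of all genes were called higher in this contrast.

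Glrb, the beta subunit that anchors the receptor, was bright everywhere and differed little. Its brighter probe set, 1459850_x_at, whose suffix marks probes that can match other transcripts, had deposited signals of 3031, 2966 and 3783 in Crx-/- ZT20, against 2389, 3000 and 3166 in control ZT20. The ZT6 signals were 2862, 2981 and 3865 in Crx-/- glands, against 4149, 4015 and 4326 in control glands. The control ZT6 arrays were the highest, and the other 9 arrays overlapped one another. The group means on the normalized log2 scale were 11.68 ± 0.12 (SD) in Crx-/- ZT20, 11.63 ± 0.12 in control ZT20, 11.57 ± 0.24 in Crx-/- ZT6 and 11.97 ± 0.09 in control ZT6 (n = 3 each).

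Crx-/- minus control for Glrb was -0.40 ± 0.12 (SE) at ZT6, with groups that did not overlap, and 0.04 ± 0.12 at ZT20, with groups that did. Over both times it was -0.18 ± 0.08 with 12 arrays and -0.20 ± 0.08 with 11. Night minus day in control glands was -0.33 ± 0.12 with 12 arrays and -0.29 ± 0.12 with 11, with no overlap in either. In Crx-/- glands it was 0.11 ± 0.12, with arrays that overlapped. The second Glrb probe set, 1422504_at, differed by -0.30 ± 0.13 at ZT6 and by -0.28 ± 0.13 between night and day in control glands, again with no overlap on the normalized scale. On this probe set the ZT20 genotype difference was -0.16 ± 0.13, of opposite sign to the brighter one, and both values were within the spread between arrays. With 12 arrays limma called 32% of all genes between the genotypes at ZT6 and 16.2% between night and day in control glands. Nothing is read about Glrb from the lack of overlap in these contrasts.

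The spread between arrays of a group differed among the 4 genes. With all 12 arrays the pooled SD within groups on the normalized log2 scale was 2.02 for Glra1, 0.84 for Glra3, 0.40 for Slc6a5 and 0.15 for Glrb. The Glra1 value rested on control ZT20 replicate 3. Its SD in control ZT20 was 3.90 with that array and 0.23 without it (n = 2), against 0.19 to 0.75 in the other groups. For Slc6a5 the control ZT20 SD was 0.61 with that array and 0.07 without it. The order of the genes is therefore given for 12 arrays only. By these values a difference of the size seen for Glrb at ZT6 would have been within the spread for Glra1 and Glra3, and about equal to it for Slc6a5.

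The remaining glycine receptor subunits on the array were at or near background. Glra2, an alpha subunit of immature neurons, read 7.6, 22.8 and 23.5 in Crx-/- ZT20, against 3.6, 5.9 and 18 in control ZT20. For ZT6 the signals were 17, 22.8 and 48.9 in Crx-/- glands, against 2.4, 5.4 and 1.1 in control glands. It was above background on 2 Crx-/- ZT20 arrays, on all 3 Crx-/- ZT6 arrays, on control ZT20 replicate 3 and on no other control array. Glra4 was above background on control ZT20 replicate 3 alone, with 13.7. Neither passed the filter, so neither was tested.

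**Figure D3:**
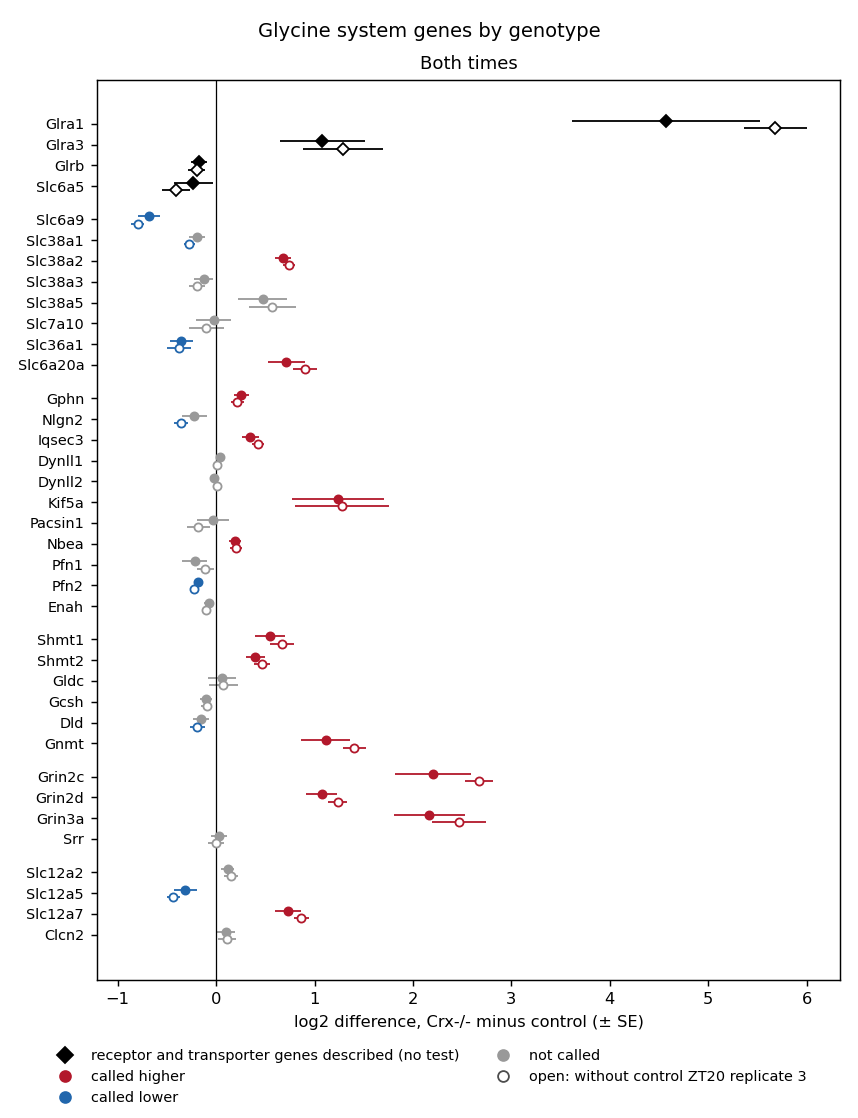
Log2 difference ± SE, Crx-/- minus control averaged over both times, for the 4 genes described (diamonds, no test) and the 33 tested genes of the glycine lists (circles, red called higher, blue called lower, grey not called by limma), with open symbols leaving out control ZT20 replicate 3. Glra1 is drawn at its fitted values of 4.57 with 12 arrays and 5.68 with 11, where the bounds are at least 2.99 and 3.75, and Grin2c is drawn at 2.20.

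Around the receptors, 49 further genes of the glycine system were listed by role, and 33 of them were tested. Over both times limma (Benjamini-Hochberg adjusted p under 0.05) called 13 higher and 4 lower in Crx-/- glands and did not call 16. This is 51.5% of the list, beside 43.4% of all genes (25.3% higher and 18.1% lower), and the median difference of the list was 0.06, beside 0.04 over all genes. Without control ZT20 replicate 3 the counts were 13 higher and 7 lower, beside 31.2% and 24.7% of all genes. The lists were chosen with results of these arrays known, so their counts are no independent evidence of a direction. The genes counted as higher include Grin3a, with a limit on its filter given below.

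Of 8 tested glycine transporters, 2 rose, 2 fell and 4 were not called, so 50% were called, beside 43.4% of all genes. Slc6a9, the GlyT1 transporter, had 2860, 3060 and 3943 in Crx-/- ZT20, against 4903, 5225 and 3727 in control ZT20. The day signals, at ZT6, were 3639, 3416 and 3315 in Crx-/- glands, against 5564, 6276 and 5967 in control glands. The Crx-/- arrays were all below the control arrays of their time apart from control ZT20 replicate 3. Slc6a9 fell by 0.68 ± 0.11 (SE) on the log2 scale over both times (limma, adjusted p = 0.000913), and the authors' deposited table gives it a log2 fold change of -1.17. Slc38a2, a neutral amino acid transporter, rose by 0.68 ± 0.08 (adjusted p = 0.000226) and Slc6a20a, which carries imino acids and glycine, by 0.71 ± 0.19 (adjusted p = 0.00938). Slc36a1, a proton-coupled amino acid transporter, fell by 0.35 ± 0.12 (adjusted p = 0.0322). That call was lost in 6 of 12 fits that left out 1 array, among Crx-/- arrays those without ZT20 replicate 3 or ZT6 replicate 3 and among control arrays those without ZT20 replicates 1 or 2 or ZT6 replicates 2 or 3, at adjusted p = 0.058 to 0.0731. The vesicular inhibitory amino acid transporter Slc32a1, which loads glycine and GABA into vesicles, did not pass the filter and read 31.3 to 52.8 in Crx-/- ZT20, 11.7 to 74.7 in control ZT20, 35.6 to 43.5 in Crx-/- ZT6 and 9.2 to 45.4 in control ZT6.

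Of 11 tested scaffold and trafficking partners, 4 rose, 1 fell and 6 were not called, so 45.5% were called, beside 43.4% of all genes. Gphn, which encodes gephyrin, rose by 0.25 ± 0.08 (limma, adjusted p = 0.017), Iqsec3, a gephyrin-binding exchange factor, by 0.35 ± 0.09 (adjusted p = 0.00761), and Nbea, a trafficking protein, by 0.19 ± 0.06 (adjusted p = 0.0275). The Nbea call was lost in 5 of 12 fits that left out 1 array (Crx-/- ZT20 replicate 1, control ZT20 replicate 2, Crx-/- ZT6 replicate 1, or control ZT6 replicate 1 or 3), at adjusted p = 0.0569 to 0.0735. Pfn2, an actin-binding profilin and the only listed partner that fell, was named after its value was seen and fell by 0.19 ± 0.04 (adjusted p = 0.00373). Kif5a, a kinesin of neurons, was called higher at 1.24 ± 0.47 (adjusted p = 0.0475), but that value rested on Crx-/- ZT6 replicate 3, where it read 1689 against 133 to 168.7 on the other Crx-/- arrays and 39.7 to 137.5 on the control arrays. Without that array the Kif5a difference was 0.71, and the call was lost in 8 of 12 fits that left out 1 array, at adjusted p = 0.0588 to 0.103. The exceptions were the fits without control ZT20 replicate 3 or without any 1 of the Crx-/- ZT6 replicates.

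Of 6 tested genes of glycine synthesis and cleavage, 3 rose and none fell, so 50% were called, beside 43.4% of all genes. Gnmt, which methylates glycine, rose by 1.11 ± 0.25 (limma, adjusted p = 0.0042), and the serine hydroxymethyltransferases Shmt1 and Shmt2, which make glycine from serine, rose by 0.54 ± 0.15 (adjusted p = 0.013) and 0.40 ± 0.10 (adjusted p = 0.00675). The other 3, all of glycine cleavage, were not called.

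Of the list for the NMDA receptor, for which glycine is a co-agonist, 4 of 9 genes were tested. Of these 4, 3 were called higher, beside 25.3% of all genes. One of the 3, Grin3a, passed the filter only through 3 Crx-/- arrays (ZT20 replicates 1 and 2 and ZT6 replicate 1). That is the genotype where it was higher, so its call is not used as support. Grin2c read 429, 377.7 and 508.5 in Crx-/- ZT20, against 51.9, 64.2 and 678 in control ZT20. Daytime signals at ZT6 were 956, 1660 and 962.7 in Crx-/- glands, against 121.2, 134.3 and 120.9 in control glands. Control ZT20 replicate 3 was the only control array within the Crx-/- range. Grin2c rose by 2.20 ± 0.39 on the log2 scale (limma, adjusted p = 0.00118) and Grin2d by 1.07 ± 0.16 (adjusted p = 0.000513). Grin3a read 124.2, 146.2 and 137.1 in Crx-/- ZT20, against 4.9, 25.3 and 93.9 in control ZT20. Its ZT6 signals were 102.1, 102.3 and 126 in Crx-/- glands, against 17.6, 20.8 and 18.1 in control glands, and no control array reached a Crx-/- array. The authors' deposited table lists the same 3 subunits as higher, with log2 fold changes of 2.29 for Grin2c, 1.48 for Grin2d and 1.13 for Grin3a. The fourth gene tested, for the enzyme that makes the co-agonist D-serine, was not called. The subunits Grin1, Grin2a, Grin2b and Grin3b were listed but not tested. The calls therefore describe single subunits and not the receptor as a whole.

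Of 4 tested genes that set the chloride gradient, the cotransporter Slc12a7 rose by 0.73 ± 0.13 (limma, adjusted p = 0.00129). Slc12a5, the neuronal chloride extruder KCC2, fell by 0.31 ± 0.12 (adjusted p = 0.0488). The other tested genes of this list were not called, so 50% were called, beside 43.4% of all genes. The Slc12a5 call was lost in 10 of 12 fits that left out 1 array, at adjusted p = 0.0666 to 0.114, and was kept only without Crx-/- ZT20 replicate 1 or control ZT20 replicate 3. Without control ZT20 replicate 3 the Slc12a5 difference was -0.44 ± 0.07.

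At ZT20 alone limma called 4 of the 33 genes higher, beside 6.87% of all genes, and 3 lower, beside 4.8%. With control ZT20 replicate 3 left out it called 10 higher, beside 24.1%, and 9 lower, beside 19.6%. Grin3a was among the higher genes in both fits, with the limit on its filter given above. The calls rested on single arrays of both genotypes. Leaving out Crx-/- ZT20 replicate 1, Crx-/- ZT20 replicate 2 or control ZT20 replicate 1, limma called 0 genes in the whole table, although 3228, 3407 and 2669 had an unadjusted p under 0.05. Leaving out control ZT20 replicate 2 it called 1 gene, with 2878 at an unadjusted p under 0.05. In these 4 fits 0 listed genes were called, and 9 to 14 had an unadjusted p under 0.05. With the replicate number as a block for the ZT20 arrays alone, chosen after seeing the data, limma called 2603 genes of the whole table, and of the 33 it called 8 higher and 6 lower. With signals as deposited 72 genes of the whole table were called at ZT20.

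At ZT6 limma called 10 of the 33 genes higher, beside 18.9% of all genes, and 1 lower, beside 13.1%. Grin2c (3.06 ± 0.55, adjusted p = 0.00192) and Grin2d (1.34 ± 0.22, adjusted p = 0.0014) were among the higher genes, and Slc6a9 (-0.82 ± 0.16, adjusted p = 0.00309) was the lower one. Grin3a was among the 10, with the limit on its filter given above. In the fit without control ZT20 replicate 3, limma called 11 higher, beside 24.8%, and 2 lower, beside 18.7%.

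**Figure D4:**
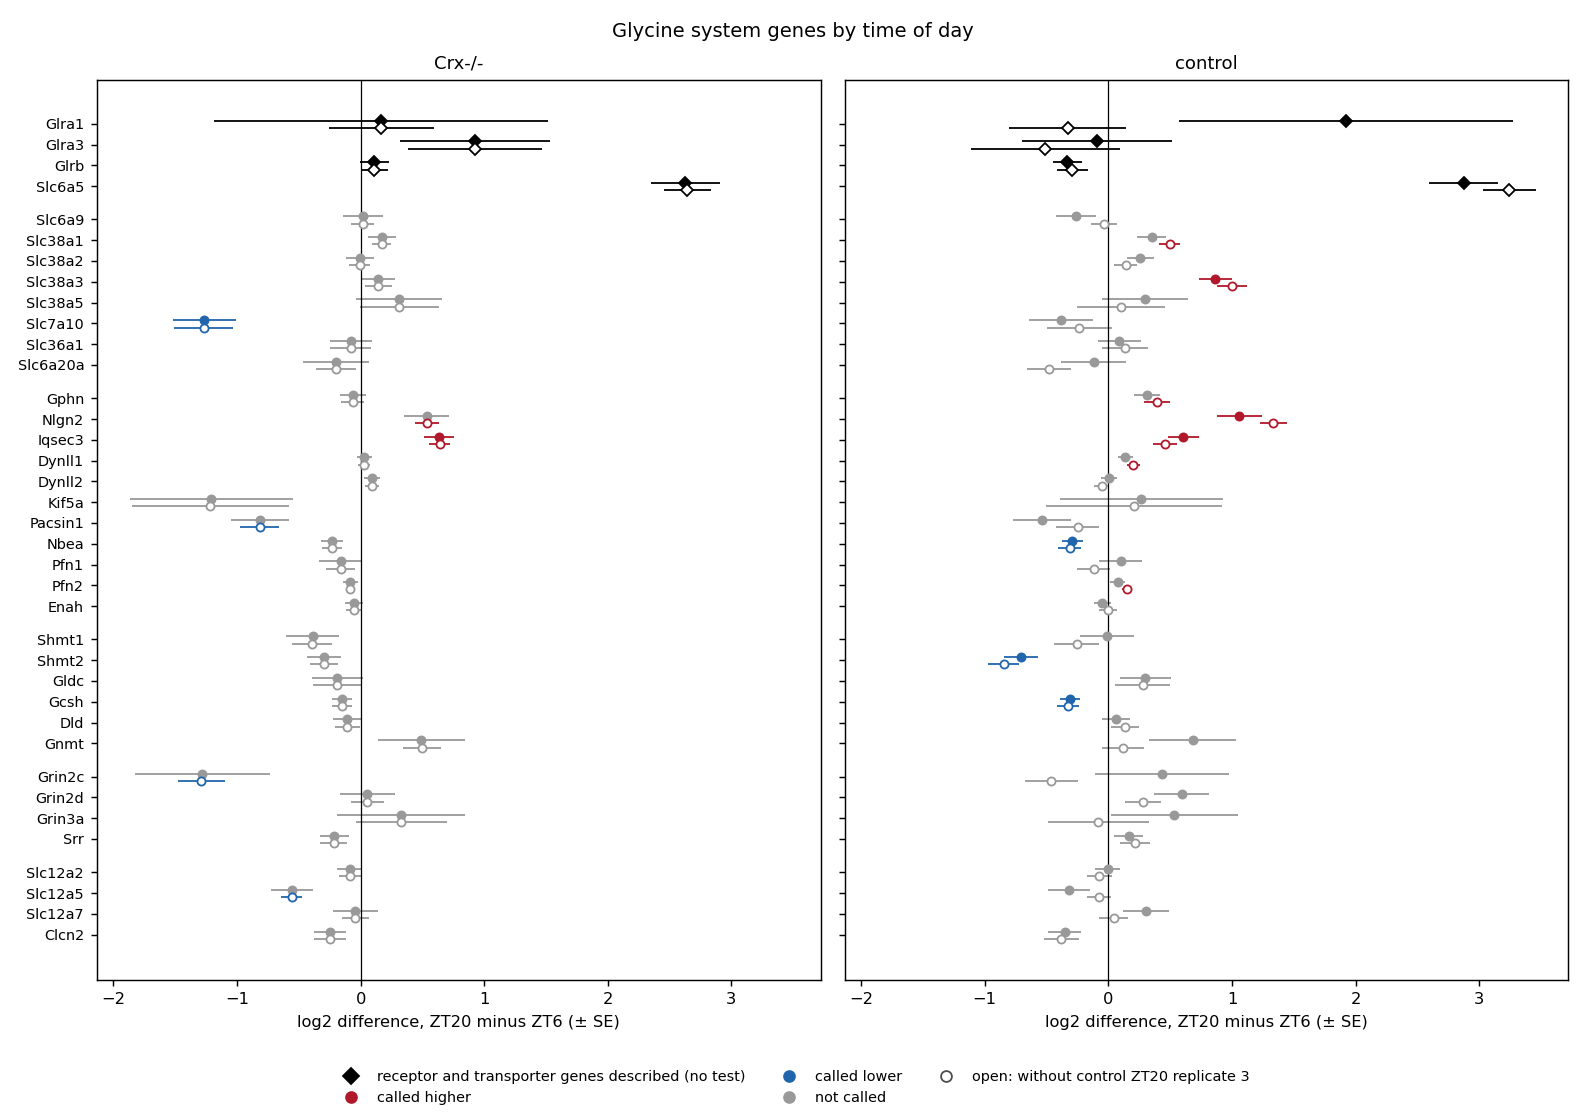
Log2 difference ± SE, ZT20 minus ZT6, in Crx-/- glands (left) and control glands (right), for the 4 genes described (diamonds, no test) and the 33 tested genes of the glycine lists (circles, red called higher, blue called lower, grey not called by limma), with open symbols leaving out control ZT20 replicate 3. Slc6a5 lies at 2.63 in Crx-/- and 2.87 in control glands, to the right of all other genes shown in both panels.

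Of the other glycine genes, 2 of 33 were called between night and day in Crx-/- glands and 6 of 33 in control glands. These are shares of 6.06% and 18.2%, beside 1.57% and 16.2% of all genes. The 6.06% includes Slc7a10, with a limit on its filter given below, so nothing is read from its excess over 1.57%. In Crx-/- glands limma called 1 of 33 higher at ZT20, beside 0.695% of all genes, and 1 lower, beside 0.872%. These were Iqsec3 at 0.64 ± 0.12 (adjusted p = 0.0231) and Slc7a10, a transporter of glycine and D-serine, at -1.26 ± 0.26. The Iqsec3 call was lost when any 1 of the 6 Crx-/- arrays was left out, at adjusted p = 0.063 to 0.11. Slc7a10 passed the filter only through 4 ZT6 arrays, the time at which it was higher, so its call is not used as support. In control glands it called 3 higher, beside 7.11% of all genes, and 3 lower, beside 9.05%. The higher genes were Nlgn2, the adhesion protein of inhibitory synapses, at 1.06 ± 0.18 (adjusted p = 0.00275), the glutamine transporter Slc38a3 at 0.87 ± 0.13 (adjusted p = 0.00154) and Iqsec3 at 0.61 ± 0.12 (adjusted p = 0.00677). The lower genes were Shmt2 at -0.71 ± 0.14 (adjusted p = 0.00532), Gcsh at -0.31 ± 0.08 (adjusted p = 0.0227) and Nbea at -0.29 ± 0.09 (adjusted p = 0.0405). The Gcsh call was lost without control ZT20 replicate 2 or control ZT6 replicate 2 or 3, at adjusted p = 0.0539 to 0.105. The Nbea call was lost without Crx-/- ZT20 replicate 2, control ZT20 replicate 2, Crx-/- ZT6 replicate 1 or 2, or any 1 control ZT6 array, at adjusted p = 0.0514 to 0.145. The genes of this paragraph were named because few were called, after their values were seen. Leaving out control ZT20 replicate 3 gave 2 higher and 4 lower in Crx-/- glands, beside 2.6% and 3.54% of all genes (6.14% in either direction). It gave 7 higher and 3 lower in control glands, beside 12% and 13.1% (25.1% in either direction). Slc7a10 was again among the lower genes in Crx-/- glands.

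For the difference between the genotypes in their night-minus-day change, limma called 0 of the 33 genes, beside 0.234% of all genes, and 5 had an unadjusted p under 0.05. In the fit without control ZT20 replicate 3 it called 4, beside 6.16% of all genes. All 4 had a lower night-minus-day value in Crx-/- glands, beside 3.89% of all genes called in that direction and 2.27% in the other.

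Markers of other cell types differed with genotype over both times, and fewer of them were called at ZT20 alone. Over both times limma called 7 of 8 markers of meninges and mural cells higher in Crx-/- glands. It called 6 of 7 of astrocytes, 4 of 7 of microglia and 3 of 3 tested oligodendrocyte markers (of 7 listed) higher as well. None of these was called lower, and limma called 25.3% of all genes higher. At ZT20 it called 0 of 8 meningeal and mural, 0 of 7 astrocyte and 0 of 7 microglia markers and 3 of 3 oligodendrocyte markers with 12 arrays. The share of all genes called higher there was 6.87%. With control ZT20 replicate 3 left out, the ZT20 calls were 5 meningeal and mural, 6 astrocyte, 2 microglia and 3 oligodendrocyte markers higher and 1 astrocyte marker lower. Of all genes, 24.1% were then called higher and 19.6% lower. Over both times, of 9 brain neuron markers 4 were higher and 2 lower. Of 9 pinealocyte markers 4 were lower and none higher, beside 18.1% of all genes called lower. The summed normalized pinealocyte signal was 50257 to 52075 in Crx-/- ZT20, against 51461 to 56782 in control ZT20. At ZT6 it was 48766 to 53533 in Crx-/- glands, against 58004 to 58135 in control glands, and the genotypes overlapped at ZT20 through control ZT20 replicate 3 alone, the others of its group being at 55874 and 56782. The brain neuron sum was 22915 to 23907 in Crx-/- ZT20, 22521 to 25937 in control ZT20, 21775 to 26788 in Crx-/- ZT6 (highest on replicate 3) and 25995 to 26253 in control ZT6, where Nefl was at background.

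The astrocyte sum was 17893 to 19774 in Crx-/- ZT20, 13225 to 20199 in control ZT20, 18087 to 22787 in Crx-/- ZT6 and 11869 to 12286 in control ZT6. The microglia sum was 14406 to 15772 in Crx-/- ZT20, 10517 to 10814 in control ZT20, 13457 to 15769 in Crx-/- ZT6 and 8110 to 12901 in control ZT6. No marker of either list was at background in a whole group, and the astrocyte sums overlapped between genotypes only through control ZT20 replicate 3, the others of its group being at 13225 and 14009. The summed normalized oligodendrocyte signal was 4287 to 5091 in Crx-/- ZT20, against 2492 to 3552 in control ZT20. At ZT6 it was 4513 to 6113 in Crx-/- glands, against 2585 to 2961 in control glands. Of its 6 markers on the array, Mag was at background on every array of both Crx-/- groups and in neither control group as a whole. Mog was at background in Crx-/- ZT20 and in control ZT6. The oligodendrocyte markers called higher do not include Mag or Mog, so the calls do not cover the whole list. The summed meningeal and mural signal was 31603 to 35281 in Crx-/- ZT20, against 26659 to 33825 in control ZT20. At ZT6 it was 34547 to 37534 in Crx-/- glands, against 19526 to 20898 in control glands, with no marker at background. The part of these cell types in the genotype differences of Glra1, Glra3 and the listed genes was not tested.

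The genes whose pattern over the 12 arrays was most like each member were ranked by Pearson's r of normalized log2 values. The arrays fall into groups, so r mainly ranks genes by how alike their group differences are, and it carries no p. For Slc6a5 they were Dtx1 (r = 0.979), a Notch pathway ubiquitin ligase, Zranb1 (0.973), the clock repressor Cry1 (0.972), the G protein subunit Gnaz (0.970) and the cAMP phosphodiesterase Pde4b (0.967). Without control ZT20 replicate 3, Dtx1, Zranb1, Gnaz and Cry1 were again among the first 5, joined by Efna2 (0.978). For Glra1 they were 0610030E20Rik (0.987), Gm20383 (0.986), Crtam (0.985), 4932441J04Rik (0.984) and Gcfc2 (0.984), and of these 0610030E20Rik, Gm20383 and 4932441J04Rik were among the first 5 without that array, with Synpo2 (0.989) and Gpam joining them. For Glra3 likeness was lower, with the receptor phosphatase Ptprz1 at 0.911, Eppk1 at 0.887, Ero1a at 0.885, the mineralocorticoid receptor Nr3c2 at 0.872 and Map6 at 0.863. Leaving out the array kept Ptprz1, Ero1a and Nr3c2 among its first 5 and brought in Phkg1 (0.898) and Arsk. For Glrb the first were the cholesterol transporter Abcg1 (0.882), Zranb2 (0.882), P4htm (0.878), D030056L22Rik (0.876) and Degs1 (0.872). In the 11 arrays the first were Ywhaz (0.906) and Cep164 (0.903), followed by D030056L22Rik, Abcg1 and Zranb2.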

How the data were processed

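RNA (100 ng) was amplified with a NuGEN Ovation kit and hybridized to 12 Affymetrix mouse 430_2 arrays, per the labels. The deposited values are signal intensity per probe set on a linear scale, made by the authors with GCOS, per the submitters' processing notes. The GCOS version is not given in the sources used here. The authors' deposited gene lists, made with ChipInspector 2.1 per the labels, hold the log2 of each fold and a linear version with a sign, which is kept here as a score.

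Signals were quantile normalized and used as the log2 of signal plus 3.4 (the 10th percentile), which understates the change of low genes. Probe sets with at least 3 arrays at or above their array's median were kept (24273), and the brightest one per gene was tested. Of the probe sets, 34945 had 1 symbol, 932 several and 9160 none, and the last 2 kinds were not tested. Group means of all 12 arrays were fitted with limma 3.58.1 (R 4.3.3, trended prior), two-sided, with Benjamini-Hochberg adjustment over 12379 genes and a threshold of 0.05. The fit was tested on simulated data whose spread left out control ZT20 replicate 3, which says nothing of how the fit behaves with that array. Background was the highest of 27 Bacillus control probe sets on each array. The number of arrays limits the precision.

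The members, gene lists and tests were chosen with earlier results of these data known. Named genes are all probe sets of the 4 members, up to 4 called genes per list by size of difference, Glra2, Glra4, Slc6a9, Slc32a1 and Gphn always, and for each member the 5 genes with the highest r. One further listed gene is not reported here. Other scalings, offsets, filters, probe set rules, a replicate block and leaving out each array were tried. Deviations of same-numbered arrays from their group means correlated at 0.126, 0.13 and 0.176 between the ZT20 groups. By a limit of 0.1 for every pair the labels' replicate numbers were taken to pair the ZT20 arrays. The labels themselves state no pairing. Deviations within a group cancel out, so these correlations are not independent, and control ZT20 replicate 3 enters all of them through its group mean. The pairing is therefore an assumption, and the main fits did not use it. The correlations ranged from -0.257 to 0.208 between the other groups, where the numbers were not taken to pair. Upstream windows came from RefSeq (GRCm38.p6).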

Additional observations from a re-analysis of the deposited data

Results flagged for a closer look

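With control ZT20 replicate 3 left out, 4 genes of the glycine lists had night-minus-day changes that differed between the genotypes by limma's interaction term (Benjamini-Hochberg adjusted). The difference, Crx-/- minus control, was -0.80 ± 0.14 (SE) on the log2 scale for Nlgn2 (adjusted p = 0.0072), -0.86 ± 0.16 for Slc38a3 (adjusted p = 0.00913), -0.23 ± 0.06 for Pfn2 (adjusted p = 0.0348) and -0.48 ± 0.13 for Slc12a5 (adjusted p = 0.0463). Nlgn2 was higher at night by 0.54 ± 0.10 in Crx-/- glands and by 1.33 ± 0.11 in control glands. The night-minus-day value of Slc38a3 was 0.14 ± 0.11 in Crx-/- glands, which was not called, and 1.00 ± 0.12 in control glands, which was. With all 12 arrays none of the 4 interaction terms was called.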

How the results depend on the processing

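The spread between arrays was wide for Glra1, so staying within it says little there: with offsets of 1 and 16 its difference was 5.42 and 3.13 over both times and 6.39 and 3.80 at ZT6. The log2 differences of Glra1, Glra3, Glrb and Slc6a5 moved by less than the replicate spread in 209 of 210 values under other scalings, offsets, filters, probe set rules and fits. The exception was Glrb between night and day in control glands, which was -0.56 on signals as deposited. The sign was kept in 208, and the other 2 were Glrb values close to 0. The filters, the replicate block and the trend setting cannot change these log2 differences. The probe set rule could change only that of Glrb, the gene with more than 1 kept probe set. A part of these counts was thus fixed in advance and says nothing of how stable the values are. On signals as deposited limma called 2738 genes for genotype over both times, against 5377 after normalization, and 72 at ZT20 (1444), 1272 at ZT6 (3956), 60 for time in Crx-/- (194), 535 for time in control (2000) and 4 for the interaction (29). Of the glycine lists it called 4 genes lower over both times, but 2 on signals as deposited, 1 with scaling to a common trimmed mean and 2 with no filter. At ZT20 it called 767 genes with no filter and 947 with no trend. The interaction count was 5 with an offset of 1, 1 with no filter and 56 with the mean of kept probe sets.

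By the limit of 0.1 for every pair, same-numbered arrays were taken to pair between the ZT20 groups only. Their deviations also correlated at 0.09, 0.057 and 0.173 between Crx-/- ZT20 and Crx-/- ZT6, and the labels state no pairing. With the number as a replicate block for all arrays the interaction count was 1, and no other count left the range within 1.5 times. With a replicate block at ZT20 only, added after seeing the data, limma called 2603 genes at ZT20.

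Leaving out each array in turn gave 4420 to 6913 genes for genotype over both times, 0 to 5408 at ZT20, 2574 to 5381 at ZT6, 84 to 759 for time in Crx-/-, 953 to 3108 for time in control and 0 to 762 for the interaction. The glycine genes lower over both times numbered 2 to 7 and those higher 10 to 13. Over both times the difference was 3.98 to 5.68 for Glra1, 0.93 to 1.30 for Glra3, -0.24 to -0.12 for Glrb and -0.41 to -0.09 for Slc6a5. Night minus day in Crx-/- glands was -0.20 to 0.45 for Glra1, 0.48 to 1.21 for Glra3, 0.00 to 0.23 for Glrb and 2.45 to 2.93 for Slc6a5. In control glands it was -0.33 to 3.13 for Glra1, -0.51 to 0.21 for Glra3, -0.39 to -0.28 for Glrb and 2.66 to 3.24 for Slc6a5. Glra3 was tested in 9 of these 12 fits, so its ranges lack the fits without a Crx-/- array that carried it past the filter. With no filter and without Crx-/- ZT6 replicate 3, the Glra3 difference was 0.72 over both times. Its night minus day in Crx-/- glands was then 1.66, and both values lie outside the ranges above. The cause of these shifts was not tested.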
